A study of Mus musculus with 6 samples.

Results

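The germline, meiosis and piRNA pathway genes described here are 32 genes listed by name, each found on the array through a probe set annotated with 1 gene symbol. They were read by 34 of the 35557 probe sets, and stand among 19938 genes with 1 symbol. They were divided into 7 genes of meiosis, 11 genes of the piRNA pathway and germ granules, and 14 other germline genes. RNA of cultured mouse embryonic stem (ES) cells, which derive from the early embryo, was hybridised to Affymetrix Mouse Gene 1.0 ST arrays. Of the 6 arrays, 3 came from w9.5, the parental wild-type (WT) line, and 3 from Cl34, an ES cell clone of genotype Hira-/- (Hira-null), which lacks the gene for a chaperone that deposits histone H3.3. Both lines grew in the same serum medium with the LIF supplement ESGRO, with no other treatment named, and cells were taken at several degrees of confluence that the labels do not tie to an array. The Hira-null group is 1 clone, so loss of Hira and other differences of that clone cannot be told apart. The labels call the arrays biological replicates without naming separate cultures. The p-values therefore set line differences against a spread of these arrays within each line that may be only technical.

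Germ cells express a set of genes that somatic cells keep silent. Meiosis genes build the synaptonemal complex, which holds paired chromosomes together, and the cohesins and checkpoint proteins of that stage. The piRNA pathway uses small RNAs bound to PIWI proteins, made in granules rich in Tudor-domain and helicase proteins, to silence transposons in the germ line. In ES cells many of these genes have CpG-rich promoters and are held down by DNA methylation and by a variant Polycomb complex, PRC1.6. That complex holds MGA and MAX, which bind the E-box letters CACGTG, and E2F6, which binds E2F-type letters. Some germline genes are nevertheless expressed at some level in cultured ES cells, and the values below are to be read against that background.

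All values are the authors' deposited log2 values, and differences are Hira-null minus WT on that log2 scale, with the SD of 3 arrays or limma's standard error (SE). Only probe sets that exceeded 3.78, the 30th percentile of the table, on 3 or more arrays were tested. This left 25142 probe sets and 15199 genes, among them 28 of the 32 germline genes. Array medians ran from 4.93 to 5.02. The stem cell identity of the samples was checked with 15 markers, all of which were tested. Of these, 9 had higher and 6 lower means in the Hira-null clone, and 0 passed after adjustment by limma. An unadjusted p under 0.05 was found for 4 of the 15, against 10.5% of all genes tested. The lines were apart in 4 of the 15, against 17.4%. The differences of the 15 ran from -0.52 for Klf2 to 1.68 for Tbx3, whose lines were apart in both cases. Sox2 and Utf1 were lowest in Hira-null replicate 3, at 9.44 and 9.27. Pou5f1 read 10.91 to 11.45 in the WT arrays and 11.35 to 11.58 in the Hira-null ones, and Nanog 10.78 to 10.98 and 10.70 to 11.12. The Hira probe set read 7.49, 7.86 and 7.83 in the WT arrays and 7.40, 7.05 and 6.81 in the Hira-null ones, a difference of -0.64 (SE 0.19, limma adjusted p = 0.352). Which part of the gene was deleted is not given, so this probe set may not check the genotype. Hira-null replicate 3 stood apart from the other arrays on principal component 1, at -65.6, with the next array at -1.95. WT replicate 1 and Hira-null replicate 3 deviated from their line means together, with a correlation of 0.44 across the probe sets tested, which are not independent. This was the largest value over all pairs of a WT and a Hira-null array. WT replicate 2 gave 0.36 with Hira-null replicate 1 and -0.41 with Hira-null replicate 3. Deviations from a line mean add up to 0 within the line, so these correlations depend on each other.

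The promoters of these genes were searched for letters that the choice of genes did not use. Windows from 250 bases before to 50 after the RefSeq transcript start (GRCm38.p6) were given for 28 of the 32 genes. The E-box CACGTG, which reads the same on both strands, occurred in 13 of the 28, or 46.4%. Over all 27025 genes with such windows the share was 8.09%, and over 15614 of them that have a 1-symbol probe set it was 9.5%. CpG-rich windows hold it more often. Of array genes with 10 or more CG dinucleotides in a window, 12.6% had an E-box, against 13 of the 26 germline genes of that kind. The E2F-type core GCGGGA, or TCCCGC on the other strand, occurred in 11 of 28 (39.3%), against 22.0% of all genes and 44.2% of CpG-rich array genes. The longer form GGCGGGAA or TTCCCGCC, which overlaps the core, occurred in 4 of 28 (14.3%) against 2.52% of all genes and 5.08% of CpG-rich array genes. An E-box and a core stood together in 1 window in 6 of 28 genes (21.4%), namely Sycp1, Sycp3, Hormad1, Ddx4, Mael and Slc25a31, against 2.32% of all genes and 5.02% of CpG-rich array genes. Of the 26 germline genes with 10 or more CG dinucleotides, which match the CpG-rich array genes, 42.3% had the core and 15.4% the longer form. In 23.1% of the 26 an E-box and a core stood together. Genes with several windows were counted once if any window matched, and a match describes the letters only.

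The 8 windows below set genes that read higher in every Hira-null array (Mael, Taf7l, Slc25a31, Stk31) beside Sycp3 and Ddx4, whose lines overlapped, Hormad1, which hardly differed, and Usp26, which was lower. They are examples and do not stand for their groups. Syce1 and D1Pas1, also higher in every Hira-null array, had no E-box and are not shown. Each runs 5′ to 3′ on the strand of the gene, and capitals mark the E-box and the E2F-type core.
Mael, chr1:166238695-166238994, minus strand: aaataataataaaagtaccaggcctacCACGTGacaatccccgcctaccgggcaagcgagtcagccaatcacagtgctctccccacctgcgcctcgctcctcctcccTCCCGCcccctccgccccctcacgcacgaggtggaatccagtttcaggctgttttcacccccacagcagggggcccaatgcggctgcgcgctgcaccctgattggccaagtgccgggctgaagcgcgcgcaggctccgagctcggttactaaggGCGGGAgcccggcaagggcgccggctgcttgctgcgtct
Taf7l, chrX:134476441-134476740, minus strand: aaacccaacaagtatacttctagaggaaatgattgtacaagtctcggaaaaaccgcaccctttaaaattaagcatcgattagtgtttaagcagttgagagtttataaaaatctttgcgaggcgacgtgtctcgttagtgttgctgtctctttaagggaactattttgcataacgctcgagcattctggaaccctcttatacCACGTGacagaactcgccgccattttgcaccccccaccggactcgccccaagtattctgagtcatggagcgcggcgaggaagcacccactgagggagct
Slc25a31, chr3:40708621-40708920, plus strand: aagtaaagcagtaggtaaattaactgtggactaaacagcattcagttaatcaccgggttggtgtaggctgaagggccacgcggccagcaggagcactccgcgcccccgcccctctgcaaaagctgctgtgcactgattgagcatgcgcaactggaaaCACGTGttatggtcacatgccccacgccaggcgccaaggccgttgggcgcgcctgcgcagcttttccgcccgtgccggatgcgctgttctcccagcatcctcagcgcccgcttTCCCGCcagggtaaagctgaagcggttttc
Stk31, chr6:49395289-49395588, plus strand: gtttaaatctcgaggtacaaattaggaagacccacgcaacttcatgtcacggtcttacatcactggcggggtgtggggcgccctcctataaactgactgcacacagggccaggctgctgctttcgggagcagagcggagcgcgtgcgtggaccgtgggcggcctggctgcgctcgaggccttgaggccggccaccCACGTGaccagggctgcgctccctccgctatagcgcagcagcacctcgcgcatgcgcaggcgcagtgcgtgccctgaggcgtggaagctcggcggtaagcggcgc
Sycp3, chr10:88459337-88459636, plus strand: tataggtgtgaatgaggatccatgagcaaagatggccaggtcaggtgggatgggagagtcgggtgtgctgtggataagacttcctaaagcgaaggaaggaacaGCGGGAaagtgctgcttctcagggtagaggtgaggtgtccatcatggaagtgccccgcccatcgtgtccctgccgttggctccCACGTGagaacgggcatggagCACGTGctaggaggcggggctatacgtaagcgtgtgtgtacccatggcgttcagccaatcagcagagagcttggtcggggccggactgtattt
Ddx4, chr13:112652261-112652560, minus strand: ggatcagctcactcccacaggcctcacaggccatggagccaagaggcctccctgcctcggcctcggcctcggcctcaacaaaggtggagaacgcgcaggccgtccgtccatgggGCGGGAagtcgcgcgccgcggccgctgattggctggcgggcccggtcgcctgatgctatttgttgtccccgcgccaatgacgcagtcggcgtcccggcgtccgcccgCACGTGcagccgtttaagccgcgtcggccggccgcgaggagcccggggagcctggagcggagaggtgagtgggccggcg
Hormad1, chr3:95559427-95559726, plus strand: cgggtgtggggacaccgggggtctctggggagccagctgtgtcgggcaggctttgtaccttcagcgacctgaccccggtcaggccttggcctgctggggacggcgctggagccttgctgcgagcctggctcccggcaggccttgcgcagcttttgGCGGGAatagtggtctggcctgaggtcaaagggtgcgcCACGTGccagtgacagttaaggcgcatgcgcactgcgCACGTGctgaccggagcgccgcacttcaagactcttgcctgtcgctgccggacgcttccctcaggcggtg
Usp26, chrX:51801184-51801483, minus strand: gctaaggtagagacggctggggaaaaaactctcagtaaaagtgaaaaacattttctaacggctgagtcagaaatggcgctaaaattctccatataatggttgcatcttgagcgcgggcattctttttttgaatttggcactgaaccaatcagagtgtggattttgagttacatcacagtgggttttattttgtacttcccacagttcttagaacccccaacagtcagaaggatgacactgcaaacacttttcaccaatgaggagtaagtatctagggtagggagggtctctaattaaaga
In Taf7l the E-box began 49 bases before the start, in Stk31 55 and in Slc25a31 93, while in Mael it lay 223 bases upstream. Sycp3 had E-boxes 64 and 43 bases and a core 147 bases upstream. Hormad1 had E-boxes 57 and 20 bases and a core 95 bases upstream, so the same letters stood before a gene whose lines hardly differed. The Usp26 window had neither motif and held 5 CG dinucleotides, against a median of 19.5 over the 28 genes. Tex14, which was also lower and is not shown, had a core 111 bases upstream, within the longer form, and 20 CG dinucleotides.

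In these bulk samples, fewer cells expressing a gene and less RNA per cell cannot be told apart. No germline gene passed the test between the lines. Of the 28 tested, 0 had a limma adjusted p under 0.05, where 1 of all 25142 probe sets tested (0.00398%) did. The smallest adjusted p among them was 0.149, shared by Usp26 and Nxf3. At an unadjusted p under 0.05, 7 of 28 genes were higher and 3 lower in Hira-null arrays. Over all genes tested, 4.17% were higher and 6.29% lower at that level. The same 10 genes were those whose lines did not overlap, 7 higher and 3 lower, where 7.8% of all genes tested lay apart with higher and 9.55% with lower values. The 7 were Syce1, Mael, Rnf17, Stk31, Taf7l, Slc25a31 and D1Pas1, and the 3 were Tex14, Usp26 and Nxf3. The median difference over the 28 genes was 0.34, and over all 32 it was 0.28, against -0.01 over all genes tested. In 25 of the 32 genes the range within one of the lines was larger than the difference between the lines, as in 91.4% of all genes on the array, and the 7 exceptions were Syce1, Mael, Rnf17, Tex14, D1Pas1, Usp26 and Nxf3.

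**Figure D1:**
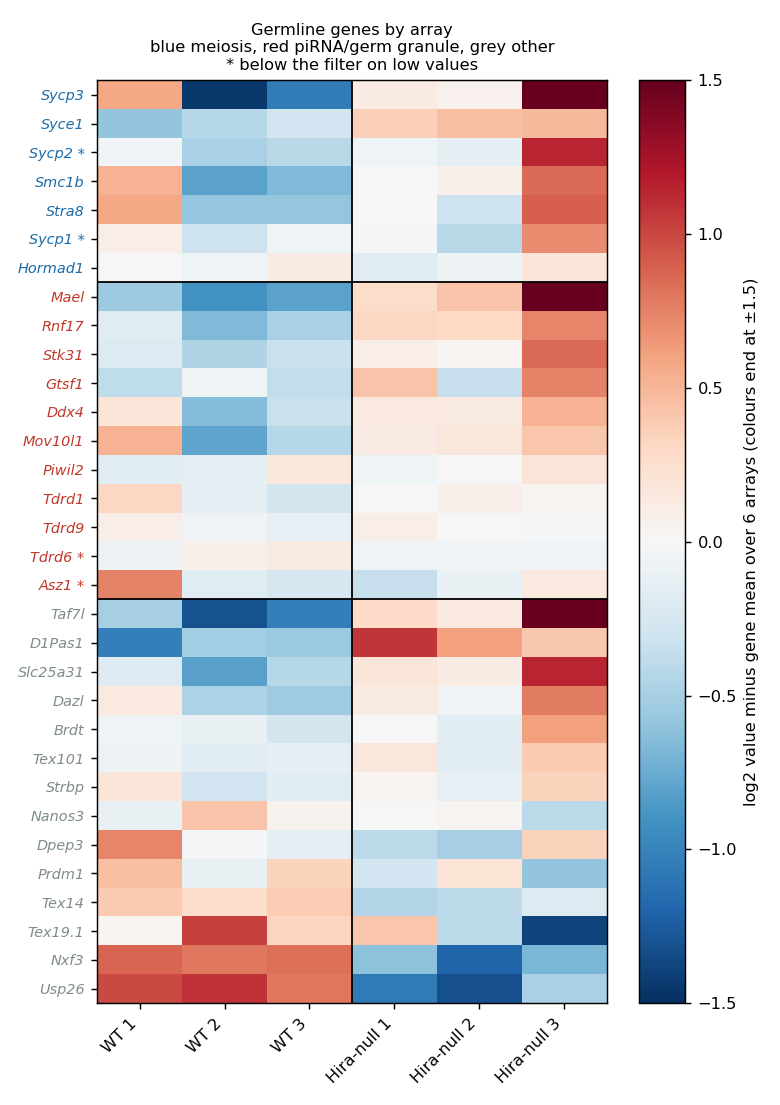
Deposited log2 value minus the gene's mean over the 6 arrays, for each of the 32 germline genes (rows, by class and then by line difference) and each array (columns). Red cells are above and blue cells below the gene's mean, asterisks mark the 4 genes below the filter, and the column of Hira-null replicate 3 is the darkest red, with 19 of 32 genes at their highest there.

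Among the meiosis genes, Syce1, which encodes a central element protein of the synaptonemal complex, separated the lines most cleanly. Its probe set 10568968 read 6.32, 6.49 and 6.63 in the WT arrays and 7.27, 7.37 and 7.40 in the Hira-null ones. The Hira-null values lay close together and above every WT value. The means were 6.48 ± 0.16 and 7.35 ± 0.07, a difference of 0.87 (SE 0.13, limma adjusted p = 0.220), or 1.82-fold. Its difference stayed between 0.76 and 0.94 over the alternatives tried.

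Sycp3, a lateral element protein of the same complex, had a larger mean difference and far more spread. Probe set 10365627 read 6.63, 4.61 and 5.01 in the WT arrays and 6.18, 6.12 and 7.77 in the Hira-null ones. WT replicate 1 was above 2 of the Hira-null arrays, so the lines overlapped. The difference of 1.27 (SE 0.63, limma adjusted p = 0.563) was 0.73 without Hira-null replicate 3 and 1.88 without WT replicate 1. Smc1b, a meiotic cohesin subunit, also had WT replicate 1 and Hira-null replicate 3 on top, with 7.27, 5.95 and 6.09 in the WT arrays and 6.76, 6.82 and 7.60 in the Hira-null ones. So did Stra8, a retinoic acid-induced factor of meiotic entry, with 6.71, 5.56 and 5.56 against 6.13, 5.82 and 7.03. In both genes WT replicate 1 lay above the other 2 Hira-null arrays, so the lines overlapped. The differences were 0.62 for Smc1b (95% interval -0.31 to 1.55) and 0.38 for Stra8 (-0.60 to 1.36).

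Hormad1, which marks unpaired chromosome axes, read 6.94 to 7.12 in the WT arrays and 6.83 to 7.19 in the Hira-null ones, a difference of -0.04 with a 95% interval of -0.37 to 0.30. A further Hormad1 probe set, 10536427, gave 0.41. The gene lies on chromosome 3, but all 20 named identifiers nearest to that probe set belong to genes of chromosome 6, so which copy it reads is not settled here. The transverse filament gene Sycp1 and the lateral element gene Sycp2 were below the filter. Each had its highest value in Hira-null replicate 3, at 4.48 and 4.82, with the other arrays at 3.35 to 3.87 and 3.20 to 3.64. The median difference was 0.62 over the 5 meiosis genes tested and also over all 7.

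In the piRNA and germ granule class the 9 genes tested all had higher means in Hira-null arrays, with a median of 0.53. The 2 below the filter, Tdrd6 (-0.09) and Asz1 (-0.20), had lower means, and the median over all 11 was 0.47. Mael, a piRNA pathway protein of the granules, was the furthest apart. Probe set 10359801 read 6.65, 6.28 and 6.39 in the WT arrays and 7.46, 7.62 and 8.74 in the Hira-null ones. Even the lowest Hira-null value was above the highest WT value, and Hira-null replicate 3 was highest. The means were 6.44 ± 0.19 and 7.94 ± 0.70, a difference of 1.5 (SE 0.33, limma adjusted p = 0.234), or 2.83-fold, and 1.10 without Hira-null replicate 3. Rnf17, which encodes a Tudor-domain protein of germ granules, read 7.56, 7.08 and 7.26 in the WT arrays and 8.05, 8.04 and 8.47 in the Hira-null ones at probe set 10415472. Its lines were apart, with a difference of 0.89 (SE 0.19, limma adjusted p = 0.233), or 1.85-fold.

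Stk31, a Tudor-domain protein kinase gene, read 5.85, 5.60 and 5.72 in the WT arrays and 6.15, 6.08 and 6.90 in the Hira-null ones at probe set 10538222. Here the gap between the lines was narrow and the mean was drawn up by Hira-null replicate 3. The difference was 0.65 (SE 0.23, limma adjusted p = 0.409), and 0.39 without that array. Ddx4, the DEAD-box helicase known as Vasa and a defining gene of germ cells, read 7.63, 6.80 and 7.11 in the WT arrays and 7.59, 7.58 and 7.97 in the Hira-null ones. Its lines overlapped through WT replicate 1, and the difference was 0.53 (95% interval -0.02 to 1.09). Mov10l1, the RNA helicase that feeds piRNA precursors into the pathway, read 7.33, 6.02 and 6.38 against 6.94, 6.98 and 7.23, with WT replicate 1 the highest of all. Its difference was 0.47. Gtsf1, a zinc finger cofactor of PIWI proteins, differed by 0.55, with Hira-null replicate 2 at 4.86, inside the WT range of 4.82 to 5.14.

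The PIWI gene Piwil2 and the Tudor-domain genes Tdrd1 and Tdrd9 had small differences. Piwil2 read 6.99 to 7.31 in the WT arrays and 7.09 to 7.35 in the Hira-null ones, a difference of 0.10 with a 95% interval of -0.25 to 0.44. Tdrd1, which gathers PIWI proteins in granules, differed by 0.07 (-0.34 to 0.48), and Tdrd9, a Tudor-domain helicase, by 0.05 (-0.24 to 0.34). Tdrd6, at 3.12 to 3.33, and Asz1, at 3.0 to 4.09, were below the filter, and Asz1 was above it in WT replicate 1 alone.

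**Figure D2:**
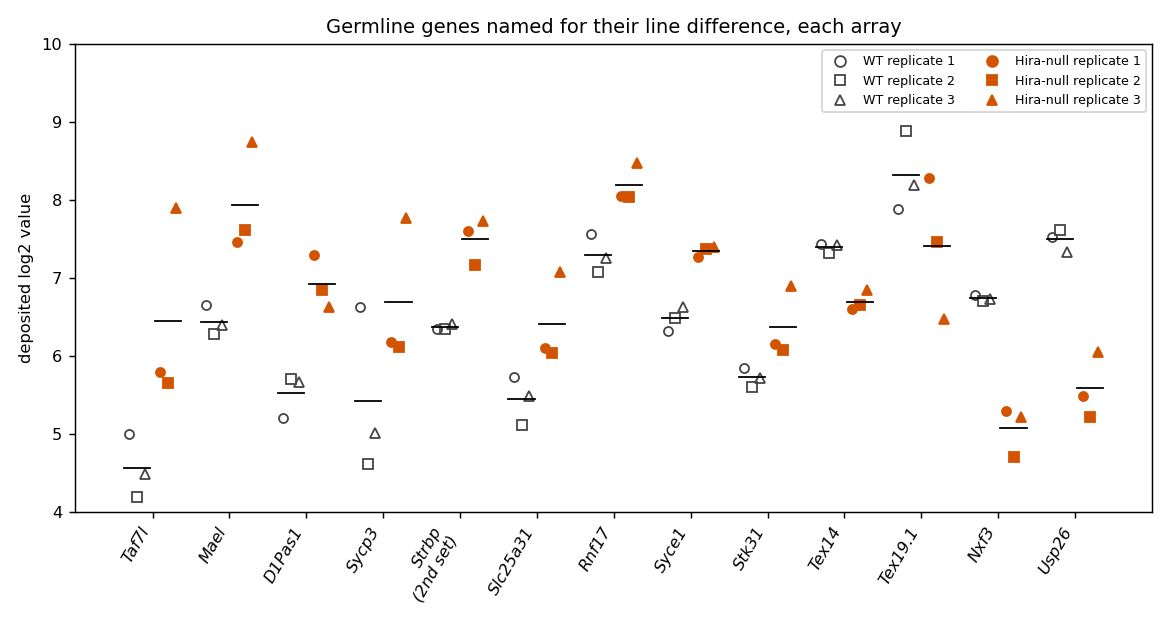
Deposited log2 values (vertical axis) in each array for the 13 probe sets, of 12 genes and a second Strbp probe set, named for their line difference, ordered from the largest positive difference to the largest negative one. Open grey symbols are WT, filled orange symbols Hira-null, shapes give the replicate and bars the means of 3 arrays; Sycp3 and Tex19.1 are the probe sets whose lines overlap.

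The other germline genes went both ways, with 7 of 14 higher and 7 lower and a median of -0.04. Taf7l, the X-linked germ cell paralog of a TFIID subunit, had the largest positive difference of all 32. Probe set 10606674 read 5.0, 4.19 and 4.48 in the WT arrays and 5.79, 5.65 and 7.90 in the Hira-null ones. The lines did not overlap, but Hira-null replicate 3 was over 2 units above the other Hira-null arrays. The difference was 1.89 (SE 0.59, limma adjusted p = 0.371), or 3.71-fold, and 1.16 without that array. Slc25a31, which encodes the ADP/ATP carrier of germ cell mitochondria, showed the same shape at probe set 10491773, with 5.73, 5.11 and 5.49 in the WT arrays and 6.10, 6.04 and 7.07 in the Hira-null ones. The difference was 0.96 (SE 0.31, limma adjusted p = 0.377), and 0.63 without Hira-null replicate 3.

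D1Pas1, a testis DEAD-box helicase gene on chromosome 1, ran against that order of arrays. Probe set 10352558 read 5.20, 5.70 and 5.66 in the WT arrays and 7.29, 6.84 and 6.63 in the Hira-null ones, with Hira-null replicate 3 the lowest of its line. The difference was 1.40 (SE 0.22, limma adjusted p = 0.220), or 2.64-fold, and 1.55 without Hira-null replicate 3. D1Pas1 is an intronless relative of the X-linked gene Ddx3x, and the array was not checked for signal shared between such copies. The Ddx3x probe sets 10598723 and 10546760 differed by -0.01 and -0.15. Strbp, a spermatid RNA-binding protein gene, had probe sets that disagree. The one with the higher level, 10482181, differed by 0.18, while 10482177 read 6.35, 6.34 and 6.41 in the WT arrays and 7.60, 7.17 and 7.73 in the Hira-null ones, a difference of 1.13 (SE 0.17, limma adjusted p = 0.220). Which transcripts each of them reads is not given in the sources used here.

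Dazl, an RNA-binding protein gene required for germ cell development, read 7.84, 7.22 and 7.17 in the WT arrays and 7.83, 7.65 and 8.48 in the Hira-null ones. WT replicate 1 lay above 2 Hira-null arrays, so the lines overlapped, with a difference of 0.58 (95% interval -0.07 to 1.22). Brdt, the testis bromodomain gene, differed by 0.30 and Tex101, a germ cell surface protein gene, by 0.26, each with its highest value in Hira-null replicate 3 (5.61 and 5.24).

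Usp26 and Nxf3 had the largest negative differences, and both are X-linked. Usp26, a deubiquitinase gene, read 7.53, 7.62 and 7.33 in the WT arrays and 5.48, 5.22 and 6.05 in the Hira-null ones at probe set 10604551. The means were 7.49 ± 0.15 and 5.58 ± 0.43, a difference of -1.91 (SE 0.22, limma adjusted p = 0.149). Its WT level was 3.76-fold that of the Hira-null clone. Nxf3, an RNA export factor gene, read 6.78, 6.70 and 6.73 in the WT arrays and 5.29, 4.70 and 5.22 in the Hira-null ones at probe set 10606837. Its WT values spanned 0.08, and the difference was -1.67 (SE 0.18, limma adjusted p = 0.149), with the WT level 3.17-fold higher. In both genes every Hira-null array was more than a log2 unit below every WT array. Usp26 had an adjusted p of 0.0416 with arrayWeights and Nxf3 one of 0.0355 without Hira-null replicate 2, and otherwise neither passed, at 0.0563 to 0.604. Over 459 X-linked genes tested the median was 0.03. The 5 genes tested on each side of Usp26 had a median of 0.08, and those around Nxf3 0.06. Around Taf7l the median was -0.04, so the medians of the neighbouring genes lay near 0 for all 3 X-linked genes.

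Of the 32 genes, 4 lie on chromosomes 8 and 11, where genes in general read lower in the Hira-null clone, with medians of -0.27 over 809 and -0.24 over 1351 genes tested. Tex14, which encodes a protein of the bridges between germ cells, lies on chromosome 11. Probe set 10380025 read 7.44, 7.32 and 7.42 in the WT arrays and 6.60, 6.65 and 6.84 in the Hira-null ones. The lines were apart, with a difference of -0.70 (SE 0.13, limma adjusted p = 0.222), which is -0.45 relative to the chromosome median. Tex19.1, a germ line and placenta gene involved in restraint of retrotransposons and also on chromosome 11, had values of 7.89, 8.89 and 8.19 in the WT arrays and 8.28, 7.46 and 6.47 in the Hira-null ones. Its lines overlapped, and Hira-null replicate 3 was the lowest array. The difference was -0.92 (SE 0.47, limma adjusted p = 0.578), and -0.45 without that array. Tex19.2, its neighbour and close relative, differed by -0.35. The 5 genes tested on each side had a median of -0.33 around Tex19.1 and -0.16 around Tex14. The chromosome 8 genes Dpep3, a membrane dipeptidase gene, and Nanos3, an RNA-binding factor of primordial germ cells, read -0.37 and -0.25, or -0.10 and 0.02 relative to their chromosome. Prdm1, the transcriptional repressor that starts germ cell fate, lies on chromosome 10 and read -0.45 (95% interval -1.03 to 0.13). Without the 4 genes on chromosomes 8 and 11 the median over the other germline class was 0.28 rather than -0.04.

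Differences between arrays of the same line were a main feature of these genes. Hira-null replicate 3 was the highest of all 6 arrays in 19 of the 32 genes, all 7 meiosis genes included, against 23% of genes on the array. In a partly different set of 19 genes, WT replicate 1 and Hira-null replicate 3 were each the highest array of their line, against 19.4% of genes. That set held 5 meiosis, 6 piRNA and germ granule and 8 other germline genes. Hira-null replicate 3 exceeded the mean of the other Hira-null arrays by a median of 0.93 in the meiosis class, 0.37 in the piRNA class and 0.39 in the other class, against 0.00 over all genes. WT replicate 1 exceeded the mean of the other WT arrays by 0.41, 0.32 and 0.11, against -0.01. The largest such differences were 1.82 for Sycp3 in WT and 2.18 for Taf7l in Hira-null arrays. In 3 genes, Tex19.1, Nanos3 and D1Pas1, both arrays were instead the lowest of their line, against 18.5% of genes.

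**Figure D3:**
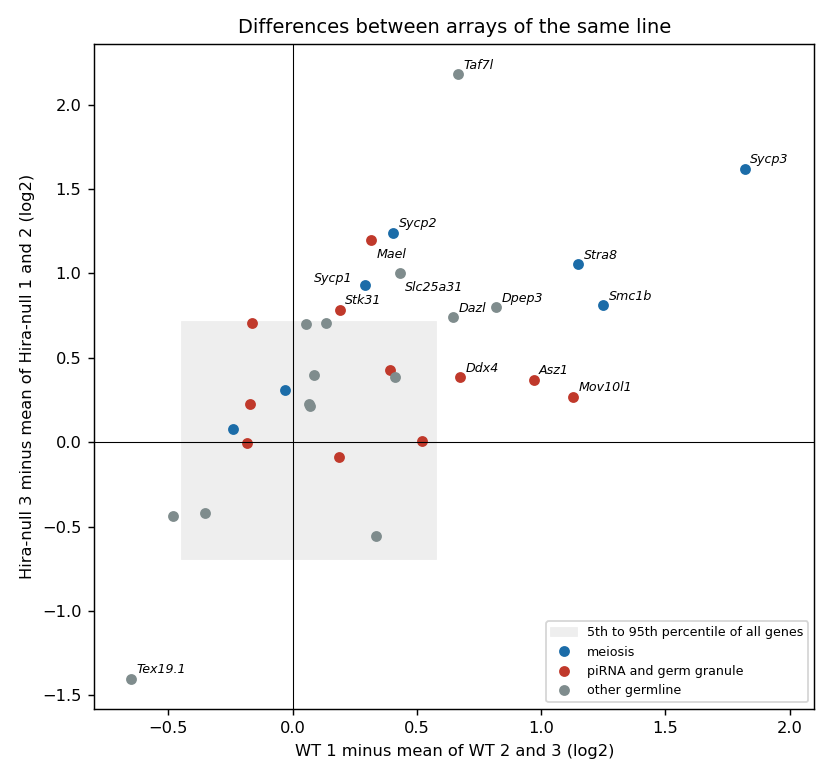
Log2 value of WT replicate 1 minus the mean of WT replicates 2 and 3 (horizontal axis) against Hira-null replicate 3 minus the mean of Hira-null replicates 1 and 2 (vertical axis), 1 point for each of the 32 germline genes, coloured by class. The grey box spans the 5th to 95th percentile of all genes on each axis, and the points lie mainly above and to the right of 0, with Sycp3 at 1.82 and 1.62 and Tex19.1 at the opposite corner.

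The median deviation from the gene mean over the 32 genes was 0.06, -0.23 and -0.28 in the WT arrays and 0.03, -0.02 and 0.41 in the Hira-null ones. WT replicate 1 thus lay above 2 of the Hira-null arrays, and the lines overlapped. Without Hira-null replicate 3 the median difference of the 28 genes was 0.10, where it was 0.34 with all arrays, and that of the meiosis class was 0.35, where it was 0.62. Without WT replicate 2 the meiosis and piRNA medians were 0.38 and 0.34. Leaving out both Hira-null replicate 3 and WT replicate 1 gave 0.25 over the 28 genes. Among the remaining 4 arrays 17 of the 28 genes had an unadjusted p under 0.05 (11% of all genes tested), and 0 passed after adjustment. The lines did not overlap in 22 of 28, against 41.0% of all genes tested, a share that is higher with 2 arrays a line by construction. The 2 arrays left out were each the highest of their line in 19 of the 32 genes, against 19.4% of genes on the array. Leaving them out therefore takes away spread of these genes in particular, and neither count is an even comparison with all genes.

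Other gene groups followed the same order of arrays or its reverse, and their part in the germline values was not tested. Of 26 genes that keep germline promoters silent in ES cells, 13 went the other way, against 18.5% of genes on the array. In these 13, WT replicate 1 and Hira-null replicate 3 were each the lowest array of their line. In 1 of the 26, Yaf2, each was the highest. The median deviation over all 26 was -0.10, 0.05 and 0.07 in the WT arrays and 0.19, 0.12 and -0.14 in the Hira-null ones. The 13 include the DNA methylation genes Dnmt3l, Dnmt3a, Dnmt3b and Uhrf1, the PRC1.6 genes L3mbtl2, Pcgf6, Cbx3 and Tfdp1, and Setdb1 and Trim28 of the H3K9 methylation pathway. They do not include E2f6, Mga, Max, Ring1, Rnf2, Rybp, Dnmt1, Ehmt1 or Ehmt2, and E2f6 was highest of all arrays in Hira-null replicate 3 (7.28). Dnmt3l read 8.16, 9.21 and 9.60 in the WT arrays and 9.68, 9.95 and 9.16 in the Hira-null ones. L3mbtl2 read 8.13, 8.92 and 9.07 and then 8.77, 8.70 and 7.60. Between the lines 0 of the 26 passed, or had an unadjusted p under 0.05, and the median was 0.09. The genes with the smallest p, given with their differences, were Hdac2 (0.26), Tfdp1 (-0.30), Max (0.33) and Kdm5c (0.23). The lines lay apart in 4 of the 26, all with higher values, against 7.8% of all genes tested. E2f6 read 6.91 to 6.92 in WT and 7.02 to 7.28 in the Hira-null arrays (limma adjusted p = 0.637).

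Markers of other cell types were also uneven. The epithelial keratin genes Krt8 and Krt18, listed with trophectoderm markers, were highest in the same arrays, Krt8 with 9.51, 8.51 and 8.23 in the WT arrays and 8.02, 7.84 and 10.24 in the Hira-null ones. Cdx2, a defining trophectoderm factor, stayed at 4.32 to 4.70 in all 6 arrays. The summed linear level of the 9 trophectoderm markers ran from 811 to 1665 in WT and from 690 to 2752 in Hira-null arrays. WT replicate 1 and Hira-null replicate 3 were each the highest of their line in 4 of the 9. In 2 of the 9, Eomes and Elf5, both arrays were instead the lowest of their line. Krt8 and Krt18 made up most of the sum in Hira-null replicate 3, at 10.24 and 10.20, where the next marker, Tfap2c, read 7.32. The sum therefore does not describe the list as a whole. The summed linear level ran from 1802 to 2696 and from 1229 to 2030 for the 14 endoderm markers, with 8 of 14 highest in both arrays. For the 13 fibroblast and feeder markers on the array it ran from 405 to 631 and from 347 to 557, with 5 of 13. Of the stem cell markers, 7 of 15 were lowest in both arrays. Between the lines the median difference was 0.04 over 8 trophectoderm, -0.42 over 12 endoderm, -0.39 over 7 fibroblast and 0.13 over 15 stem cell markers tested. With the markers below the filter included, it was 0.03 over 9 trophectoderm, -0.30 over 14 endoderm and -0.08 over 13 fibroblast markers. Of those 13, 6 had higher means in the Hira-null clone.

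Further genes of the same pathways went both ways, and their difference from the 32 was not tested. Of 36 further meiosis genes on the array, 32 were tested, with 17 higher, 15 lower and a median of 0.08. At an unadjusted p under 0.05, 4 were higher and 3 lower, against 4.17% and 6.29% of all genes tested. The lines lay apart with higher values in 4 and with lower values in 4, against 7.8% and 9.55%. After adjustment by limma 0 passed. Rec114, a partner of the meiotic break machinery, read 6.66, 6.82 and 6.85 in the WT arrays and 5.66, 5.23 and 6.09 in the Hira-null ones, a difference of -1.12 (SE 0.22, limma adjusted p = 0.233). Its lines were apart, as were those of Hormad2 (-0.95) and Psmc3ip (-0.67), both on chromosome 11, and of the RNA-binding protein gene Ythdc2 (0.62). Of 16 further piRNA and germ granule genes, 15 were tested, with 5 higher, 10 lower and a median of -0.24. Those with the smallest p, given with their differences, were the PIWI gene Piwil4 (-0.56), Dnd1 (-0.69), Ddx25 (-0.42) and Pld6 (-0.38). Of the 15, 3 had an unadjusted p under 0.05, all lower, against 6.29% of all genes tested. The lines lay apart in 3, also all lower, against 9.55%. Dnd1 also belongs to 12 regulators of primordial germ cells, of which 2 were higher and 10 lower, with a median of -0.23. The largest of these differences was -1.94 for Dppa3, which encodes Stella, at its probe set with the higher level (limma adjusted p = 0.0526). Klf4 (0.41) and Lin28a (0.62) were the higher ones. The order of arrays was also seen beyond the 32 genes. WT replicate 1 and Hira-null replicate 3 were each the highest of their line in 14 of the 36 further meiosis genes. In the further piRNA and germ granule genes this held for 4 of 16, against 19.4% of genes on the array. Hira-null replicate 3 was the highest of all 6 arrays in 16 of the 36 and 3 of the 16, against 23% of genes.

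**Figure D4:**
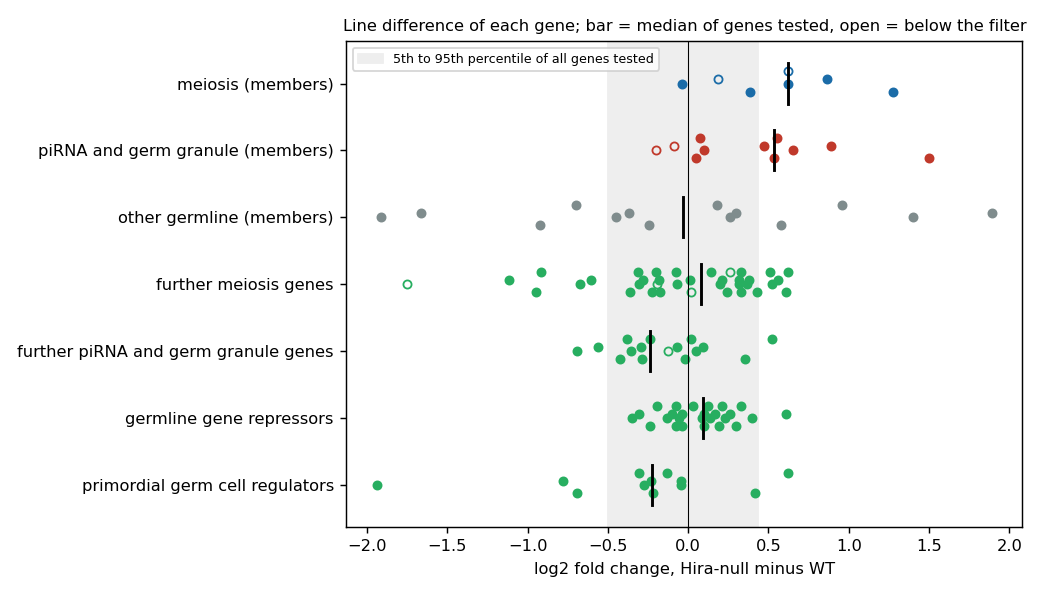
Log2 fold change, Hira-null minus WT (horizontal axis), of each gene in the 3 classes of germline genes and 4 further lists (rows). Bars are medians of the genes tested, open points are genes below the filter and the grey band spans the 5th to 95th percentile of all genes tested (-0.50 to 0.43); the meiosis and piRNA classes have medians of 0.62 and 0.53, and those of the further lists lie around 0 or below.

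The E-box was also found in 8 of 33 further meiosis genes with a window outside chromosome 18 (24.2%) and 4 of 13 further piRNA genes (30.8%). The share was 9.5% of array genes and 12.6% of CpG-rich ones. The core occurred in 63.6% of the 33 and 30.8% of the 13, against 39.3% of the 28 germline genes. The longer form occurred in 27.3% and 0.0%, against 14.3%. An E-box and a core stood together in 18.2% and 7.69%, against 21.4%. The E-box was likewise present in 6 of 23 repressor genes (26.1%) and 1 of 12 stem cell markers (8.33%). Among the 28 germline genes with a window it stood in 4 of the 6 whose Hira-null values were all higher (Mael, Stk31, Taf7l and Slc25a31, not Syce1 or D1Pas1), in 9 of the 20 whose lines overlapped and in 0 of the 2 that were lower (Tex14 and Usp26). These counts are too small to order the groups.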

How the data were processed

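RNA of 6 ES cell samples was hybridised to Affymetrix Mouse Gene 1.0 ST arrays, per the labels' protocols. The authors deposited log2 expression values per probe set, 1.14 to 14.03, and the submitters' processing notes name GCRMA. The values themselves show the log2 scale. Nearly equal array medians show values already normalized between arrays, which would hide a change shared by most genes. The sources used here name neither its version nor a genome build.

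Probe sets were named from the platform table (21789 with 1 symbol, 1621 with several, 12147 unnamed here), with symbols updated through GRCm38.p6 for 21698. A gene with several probe sets was represented by the one with the highest mean. The fit used limma 3.58.1 in R 4.3.3 (lmFit, eBayes, two-sided, no covariates, over all genes and other probe sets kept by the filter), with Benjamini-Hochberg adjustment and a threshold of 0.05. It was tested on simulated data. The median SE of 0.17 reflects the number of arrays.

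The 32 genes and all lists were chosen with earlier results of these data known, so their counts and medians are descriptions. Of the 32, all 6 values are given for genes whose lines do not overlap, whose unadjusted p is under 0.05 or whose absolute difference is at least 0.8, and for others where they show the order of arrays. Up to 4 genes of each further list were named by smallest p, mostly by their difference alone; the other genes of those lists, the markers and Ddx3x were named after their values were seen. Replicate numbers did not pair the arrays (correlations of same-numbered deviations -0.34, 0.17 and -0.10).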

Additional observations from a re-analysis of the deposited data

How the results depend on the processing

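The alternatives were no filter, a filter at the 50th percentile, quantile normalization, median centring, 2 variance models, arrayWeights, a replicate block, leaving out arrays, the median over a gene's probe sets, and leaving out chromosomes 8 and 11. All 13 probe sets named for their line difference kept their direction under the 15 alternatives run on them. With the replicate block 0 germline genes passed and 10 had an unadjusted p under 0.05, as in the fit without it. With arrayWeights 1 passed (Usp26, -2.04), and leaving out 1 array gave 0 to 1 (Nxf3, -1.48, without Hira-null replicate 2). Over all probe sets tested, 1 passed, against 5 with arrayWeights, 0 with the block, 2 with the stricter filter or median centring, 41 without Hira-null replicate 2 and 0 without any other array. Leaving out 1 array gave medians of 0.10 to 0.48 over all germline genes tested, 0.35 to 0.79 for meiosis, 0.34 to 0.72 for piRNA and germ granule genes and -0.07 to 0.10 for the other class. The other class had a median of -0.31 with the filter at the 50th percentile and 0.28 without chromosomes 8 and 11, and its direction therefore depends on which genes are counted. Lines that did not overlap numbered 11 to 20 of 28 when 1 array was left out, highest without WT replicate 1, where the share of all genes was 27.8%. They numbered 22 with WT replicate 1 and Hira-null replicate 3 both left out, where 17 genes had an unadjusted p under 0.05, a count added after the data were seen. Fewer arrays make such separation more common by construction. In 19 of the 32 genes those 2 arrays were each the highest of their line, so these counts are not an even comparison with all genes. Depth has no counterpart here, and signal over background was not analysed.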
